A study of Caenorhabditis elegans with 24 samples.

Results

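RAGA-1::AID Somatic animals were compared with wild type animals without auxin, which asks how far the degron strain differs from its control before auxin is added. The comparison takes 8 of the 24 libraries of the series, chosen by their labels: 4 of RAGA-1::AID Somatic and 4 of wild type (N2), all from day 3 adults kept on ethanol control plates. RAGA-1::AID Somatic is strain WBM1438, which carries raga-1(wbm40), the endogenous gene tagged at its 3′ end with the AID degron and EmGFP, and ieSi57, an eft-3p::TIR1::mRuby transgene with an unc-54 3′UTR and Cbr-unc-119(+), both on chromosome II. It came from a cross of the tagged strain with a somatic TIR1 strain, so it represents 1 tagged line. That TIR1 strain was backcrossed to N2 from a source that also held unc-119(ed3) on chromosome III, an allele that the genotype of WBM1438 does not list. Further libraries were used beside the main comparison, 4 in each group: RAGA-1::AID Somatic and wild type with 0.15 mM auxin from day 1 of adulthood, and RAGA-1::AID Neuronal without auxin, strain WBM1250, with raga-1(wbm40) and wbmIs83, a TIR1 driven by the rab-3 promoter on chromosome IV. Each library came from about 400 whole animals, and each replicate came from its own thaw of the strains and its own day of collection.

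In the AID system, the plant F-box protein TIR1 joins the worm's own SCF ubiquitin ligase and marks degron-tagged proteins for the proteasome when auxin is present. Some degradation without auxin is known for this system and was described for RAGA-1 in this somatic strain, so animals without auxin may already have lost some RAGA-1. RAGA-1 protein was not measured in these libraries. RAGA-1 is the worm RagA, a Rag GTPase that recruits mTORC1 to the lysosome when amino acids are sufficient, and mTORC1 in turn drives protein synthesis and growth. The tag, the TIR1 transgene and any loss of RAGA-1 protein come together in this strain and cannot be told apart by its comparison with wild type.

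Of 21982 genes in the table, 13150 reached 10 normalized counts in 4 or more of all 24 libraries and were tested. Without auxin, 28 of them (0.213%) differed in RAGA-1::AID Somatic animals compared with wild type animals. A gene was called at a limma adjusted p of 0.01 or less. Of the 28, 3 were higher in RAGA-1::AID Somatic (unc-18, eyg-1 and ZK938.3; 0.0228% of all genes were called higher) and 25 were lower (0.19% of all genes). The genes called lower were raga-1 itself, unc-119, 14 genes of the nspc peptide family and 9 others. In all 28 the 4 RAGA-1::AID Somatic libraries and the 4 wild type libraries did not overlap, against 4.15% of all genes tested (2.53% with RAGA-1::AID Somatic lower). The calls rest on the same libraries, so this separation follows largely from them. Of the 28 genes 14 differed by 2-fold or more, and the median log2 fold change of the genes called lower was −0.89. Over all genes tested the median absolute log2 difference was 0.073, and 93% of genes differed by less than 0.5. The 95% interval of a gene's log2 difference reached 0.22 to either side of it at the median. An adjusted p of 0.01 or less is a stricter limit than this interval. A gene of median spread therefore needed a difference well above 0.22 to be called, and smaller ones were mostly not detectable.

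**Figure D1:**
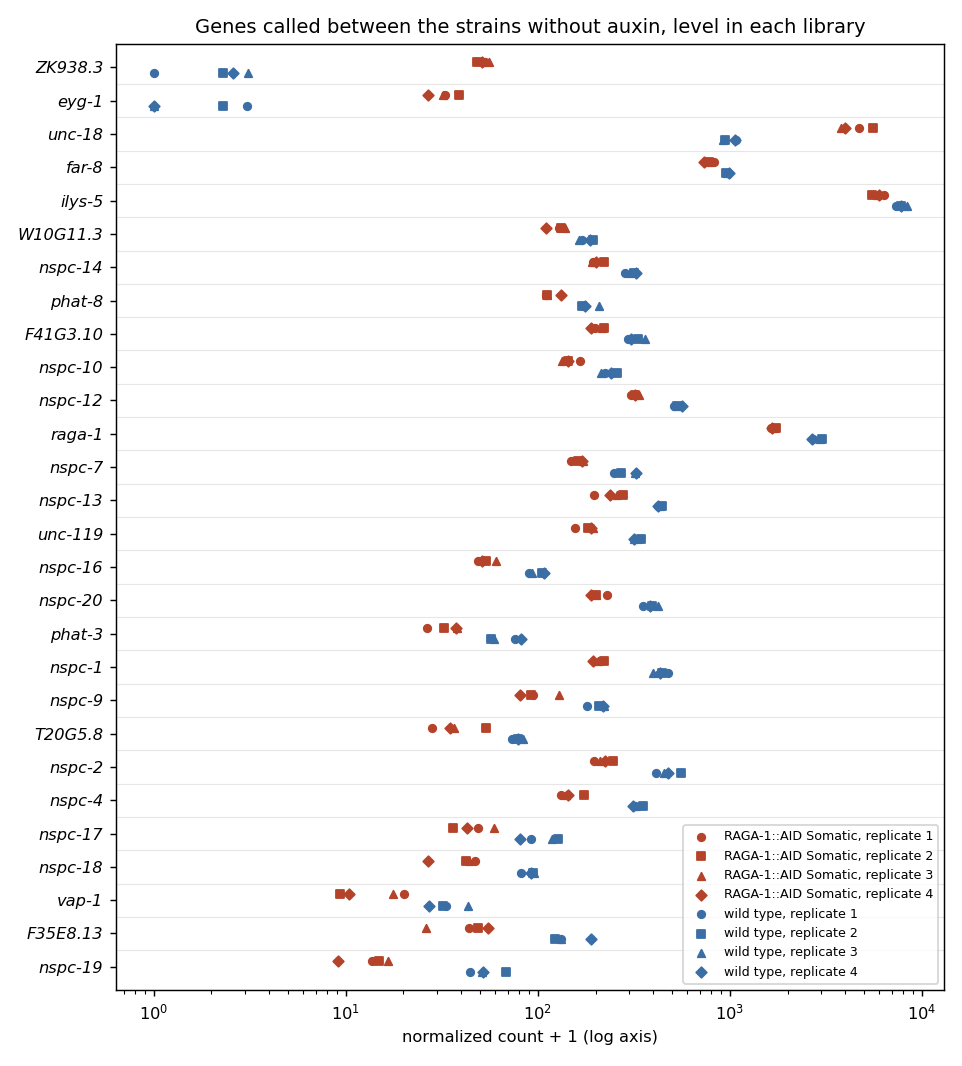
Normalized count plus 1 (log axis) of the 28 genes called between RAGA-1::AID Somatic (red, upper points of each gene) and wild type (blue, lower points) without auxin, 1 point per library with 4 libraries per strain. ZK938.3, eyg-1 and unc-18 lie to the right of wild type in all 4 RAGA-1::AID Somatic libraries, and the other 25 genes lie to the left.

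Depth was 16982857 to 28024224 reads in RAGA-1::AID Somatic libraries and 19748088 to 33283805 reads in wild type libraries. RNA was taken from whole animals, so fewer cells of a type and less RNA per cell cannot be told apart. Markers of the expected tissues were measured in both strains, and none of the lists of intestine, body wall muscle, pharynx, epidermis, germline and embryo markers held a called gene. Only 0.213% of all genes tested were called, so short lists would mostly hold none. Of 42 sperm markers in the table, 21 were at 0 in all 8 libraries and 5 were tested, none of them called. Values are normalized counts, that is, reads per gene divided by 1 size factor per library.

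The tagged gene, raga-1, was lower in RAGA-1::AID Somatic without auxin. It had 1646, 1741, 1707 and 1655 normalized counts in RAGA-1::AID Somatic libraries, against 2708, 3025, 2945 and 2673 in wild type libraries. The groups were well apart, and the tagged strain held 0.595 of the wild type level (log2 fold change −0.75 ± 0.04 SE, limma adjusted p = 1.5e-10). It lies on chromosome II, 11301359 to 11302776 (WBcel235). RAGA-1::AID Neuronal, which carries the same allele with another TIR1 transgene, had 1675, 1747, 1614 and 1664 normalized counts without auxin, so its libraries overlapped those of RAGA-1::AID Somatic. The difference between both tagged strains was 0.01 on the log2 scale (95% interval −0.08 to 0.10, limma adjusted p = 0.98). In the comparison of RAGA-1::AID Neuronal with wild type, which shares the wild type libraries, raga-1 was the 1 gene called (0.0076% of the genes), at −0.76 ± 0.04 SE.

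The other genes that share a name with the construct did not move as a group. unc-119, which encodes a lipid-binding trafficking chaperone needed in neurons, had 156, 182, 192 and 189 normalized counts in RAGA-1::AID Somatic libraries, against 339, 343, 318 and 315 in wild type libraries. All 4 RAGA-1::AID Somatic libraries were below all 4 wild type libraries, and the fall was 0.87 on the log2 scale (−0.87 ± 0.07 SE, limma adjusted p = 2.4e-08). The gene lies on chromosome III, 10902641 to 10908935. In RAGA-1::AID Neuronal, which lacks ieSi57, unc-119 averaged 316 ± 23.9 (SD, n = 4), inside the wild type range. unc-54, the muscle myosin heavy chain whose 3′UTR ends the transgene, had a log2 difference of 0.12 (limma adjusted p = 0.48), and eef-1A.1, the elongation factor gene also called eft-3 that gives the transgene its promoter, had one of 0.02 (limma adjusted p = 0.86). dpy-5, the co-injection marker of the study for edits on chromosome II, was too low to test, and dpy-10, its marker for other edits, had a difference of −0.03 (limma adjusted p = 0.97). Whether reads of the Cbr-unc-119 transgene were counted under unc-119 was not tested.

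The smallest adjusted p of all genes belonged to unc-18, the worm Munc18, which binds syntaxin and is required for synaptic vesicle release. It had 4731, 5583, 3783 and 3986 normalized counts in RAGA-1::AID Somatic libraries, against 1072, 942, 922 and 1060 in wild type libraries. All 4 RAGA-1::AID Somatic libraries were far above all 4 wild type libraries, and the fold was 4.48 (log2 fold change 2.16 ± 0.11 SE, limma adjusted p = 1.5e-11). In RAGA-1::AID Neuronal without auxin the gene averaged 993 ± 59.4 normalized counts (SD, n = 4), and its difference from wild type was −0.01 (limma adjusted p = 1.0). unc-18 lies on chromosome X, 7682896 to 7686037, not on the chromosome of raga-1 and ieSi57. Of 26 tested genes of synaptic vesicle release, unc-18 was the 1 gene called (3.85% of the list, against 0.213% of all genes). The list's median log2 difference was 0.04, against −0.0004 over all genes.

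No other tested gene of vesicle release was called. unc-64, the syntaxin that UNC-18 binds, averaged 343 ± 48.03 normalized counts in RAGA-1::AID Somatic and 328 ± 32.7 in wild type (SD, n = 4 each, 0.06, limma adjusted p = 0.92). tom-1, tomosyn, which competes for the syntaxin complex, had 319, 277, 335 and 318 normalized counts in RAGA-1::AID Somatic libraries, against 344, 363, 413 and 346 in wild type libraries, groups that did not overlap but did not pass the test (−0.23, limma adjusted p = 0.49). unc-26, synaptojanin of vesicle recycling, differed by 0.12 (limma adjusted p = 0.46). unc-17, the vesicular acetylcholine transporter, differed by 0.31 at a level of 25.1 to 38.1 normalized counts in RAGA-1::AID Somatic, against 23.9 to 32.4 in wild type (limma adjusted p = 0.6). Among 18 neuron markers, unc-119 was the 1 gene called (5.56%, against 0.213% of all genes) and the median difference was −0.004. The summed level of those markers was 10380 to 11000 normalized counts in RAGA-1::AID Somatic libraries and 10490 to 11260 in wild type libraries, which overlap. None of 103 tested neuropeptide genes was called (0.213% of all genes were), with 52 above 0 and 51 below.

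A pair of neighbouring genes on chromosome II was read in RAGA-1::AID Somatic and hardly at all in wild type. eyg-1, a Pax family transcription factor gene named for fly eyegone, had 31.8, 37.8, 31.1 and 25.7 normalized counts in RAGA-1::AID Somatic libraries, against 2.08, 1.30, 0 and 0 in wild type libraries. ZK938.3 had 52.4, 47.1, 54.98 and 50.03 normalized counts in RAGA-1::AID Somatic libraries, against 0, 1.30, 2.11 and 1.59 in wild type libraries. The groups were far apart for both genes, but the wild type side rests on few reads. For eyg-1 these were 106 reads in RAGA-1::AID Somatic against 3 in wild type, a ratio of 42.3 (95% exact interval 14.1 to 208, for counting error only). For ZK938.3 they were 167 against 5 reads, a ratio with a 95% exact interval of 16.8 to 125. On the log2(count + 1) scale, which understates changes of low genes, the differences were 4.31 ± 0.37 and 4.65 ± 0.47 SE (limma adjusted p = 2.1e-07 and 1.8e-06). In RAGA-1::AID Neuronal without auxin the levels were 1.22 ± 0.392 and 0.877 ± 1.14 (SD, n = 4).

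eyg-1 spans 9826448 to 9827952 and ZK938.3 spans 9831521 to 9833955, both on the minus strand, with 3569 bp between them. Both genes that the annotation places between them, ZK938.1 and ZK938.12, were too low to test. They averaged 2.55 and 0.231 normalized counts in RAGA-1::AID Somatic and were at 0 in all wild type libraries. Of 12 tested genes within 50 kb on either side, none was called (0.213% of all genes were), and their log2 differences were −0.40 to 0.40 with a median of 0.08. Both genes lie on the chromosome that carries raga-1 and ieSi57. The insertion site of ieSi57 was not known here, and distances to it were not measured.

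**Figure D2:**
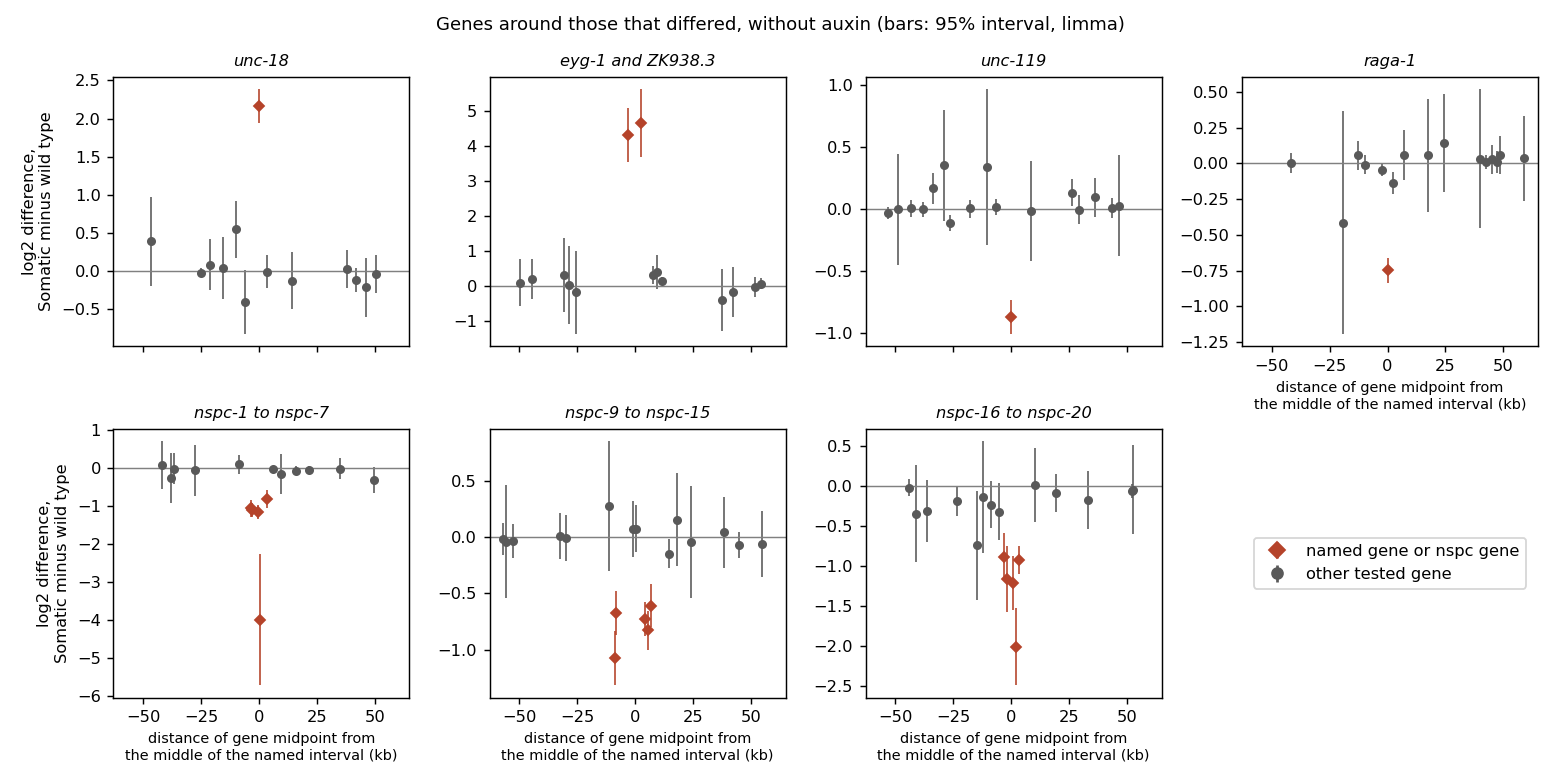
Log2 difference without auxin, RAGA-1::AID Somatic minus wild type (bars are 95% intervals from limma), of each tested gene against the distance in kb of its midpoint from the middle of the named interval, for 7 intervals. The named or nspc genes (red diamonds) stand away from 0, and no other tested gene within 50 kb (grey) was called around any of them.

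The surroundings of the other genes gave the same count. None of the tested genes within 50 kb was called around unc-18 (12 genes, −0.41 to 0.55), unc-119 (16 genes, −0.11 to 0.35) or raga-1 (15 genes, −0.41 to 0.14). With 0.213% of all genes called, so few neighbours would mostly hold no call. By chromosome, 17 of the 28 called genes lay on X (0.908% of the tested genes there), 6 on II (0.26%), 3 on III (0.141%) and 2 on V (0.0789%), with none on I or IV. Of the 17 on X, 14 were nspc genes and 3 were unc-18, ilys-5 and vap-1.

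Most genes called lower belonged to the nspc family. The name stands for nematode specific peptide family, group C, short peptides found only in nematodes. The table holds 17 nspc genes and 15 passed the filter on low values, of which 14 were called lower and none higher (93.3% of those tested, against 0.213% of all genes). Their log2 differences had a median of −1.06, against −0.0004 over all genes tested, and the 14 called genes lay between −0.61 and −2.02. All are on chromosome X, in 3 clusters that span 7.61, 18.2 and 6.63 kb. Members of a family with near-identical copies may share reads, so a single member's value is less certain than the sum over a cluster.

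In the first cluster, nspc-1 to nspc-7 (8534672 to 8542283), the summed level of 6 genes was 738, 806, 751 and 728 normalized counts in RAGA-1::AID Somatic libraries, against 1594, 1757, 1646 and 1694 in wild type libraries. That is 0.452 of the wild type mean, and 4 of the 5 tested genes were called. nspc-4 had 132, 173, 139 and 143 normalized counts in RAGA-1::AID Somatic libraries, against 320, 354, 324 and 313 in wild type libraries (−1.16 ± 0.09 SE, limma adjusted p = 2.4e-08, the smallest of the family). nspc-2 differed by −1.11, nspc-1 by −1.06 and nspc-7 by −0.83.

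The one tested member of the family not called, nspc-5, had the widest gap and the most uneven libraries. It had 50.8, 5.54, 17.9 and 0 normalized counts in RAGA-1::AID Somatic libraries, against 135, 134, 151 and 145 in wild type libraries. The groups did not overlap, and the log2 difference was −3.99 ± 0.83 SE (limma adjusted p = 0.026). In reads these were 53 against 558, a ratio of 0.114 (95% exact interval 0.0841 to 0.151, counting error only). RAGA-1::AID Somatic replicate 1 held 32 of the 53 reads, and without that library the gene was called (−4.83, limma adjusted p = 0.0022).

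In the second cluster, nspc-9 to nspc-15 (12342946 to 12361159), the sum over 6 genes was 953, 1054, 1048 and 982 normalized counts in RAGA-1::AID Somatic libraries, against 1620, 1753, 1695 and 1768 in wild type libraries, 0.59 of the wild type mean. All 5 tested genes were called, with differences of −0.61 for nspc-14 to −1.08 for nspc-9. nspc-12, the most precise of them, had 306, 321, 337 and 321 normalized counts in RAGA-1::AID Somatic libraries, against 510, 532, 529 and 561 in wild type libraries (−0.73 ± 0.07 SE, limma adjusted p = 1.7e-06). In the third cluster, nspc-16 to nspc-20 (14523575 to 14530207), the sum over 5 genes was 383, 342, 377 and 314 normalized counts in RAGA-1::AID Somatic libraries, against 659, 784, 776 and 712 in wild type libraries, 0.483 of the wild type mean. All 5 genes were called. nspc-19 fell most of the called members, with 12.7, 13.8, 15.5 and 8.11 normalized counts in RAGA-1::AID Somatic libraries, against 43.6, 67.5, 50.5 and 50.99 in wild type libraries (−2.02 ± 0.23 SE, limma adjusted p = 1.6e-05).

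The calls of nspc-16 and nspc-17 depended on single libraries. nspc-16 lost its call without RAGA-1::AID Somatic replicate 1 or 4 or without wild type replicate 2 or 4, where the limma adjusted p reached 0.016 and the difference stayed between −0.95 and −0.85. nspc-17 lost its call without RAGA-1::AID Somatic replicate 2 or 4 or without wild type replicate 2 or 3, with a limma adjusted p of up to 0.025 and differences of −1.29 to −1.05. The other 12 nspc calls were kept with each of the 8 libraries left out in turn.

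Genes that flank the clusters were not called (0.213% of all genes were). Within 50 kb, 11, 14 and 13 genes were tested around the 3 clusters in this order, and their median log2 differences were −0.06, −0.01 and −0.17. Around the third cluster the differences ran from −0.74 to 0.02 and nearly all lay below 0. Over all tested genes of chromosome X the median was −0.04. The lowest neighbour of the third cluster, fbxa-141, differed by −0.74 and did not pass the test (limma adjusted p = 0.46).

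**Figure D3:**
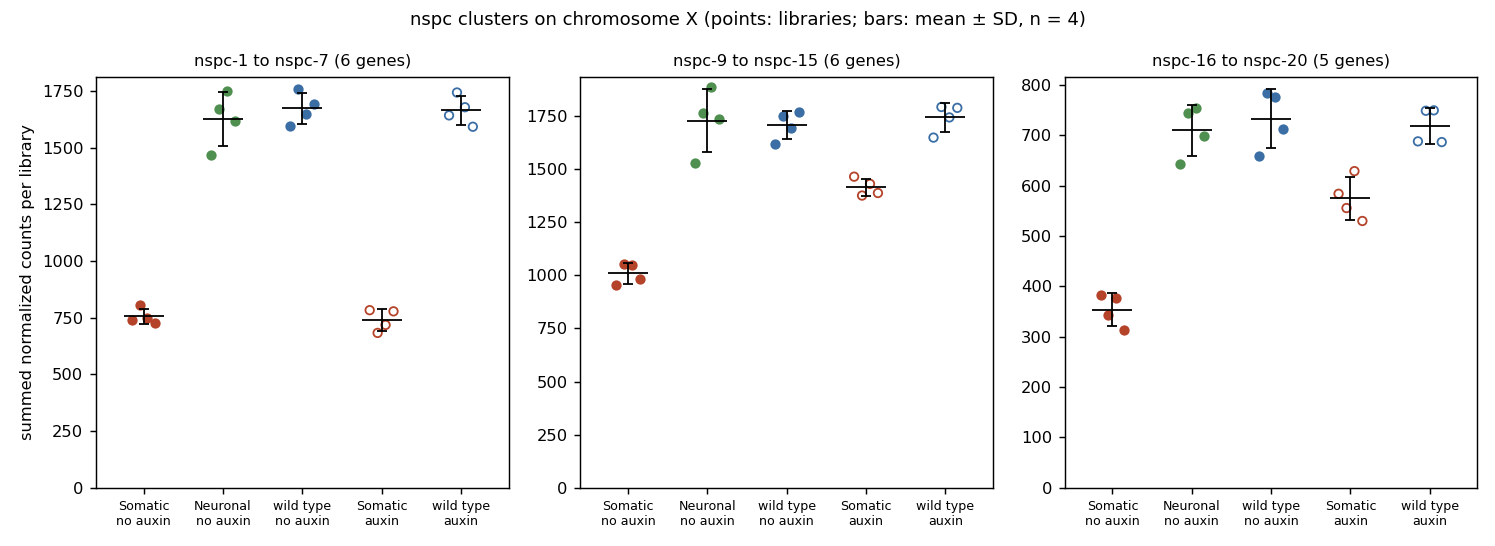
Summed normalized counts per library (points) of the 3 nspc clusters in RAGA-1::AID Somatic, in RAGA-1::AID Neuronal and in wild type without auxin and in RAGA-1::AID Somatic and wild type with auxin, with mean ± SD (n = 4). Without auxin RAGA-1::AID Somatic averaged 755, 1009 and 354 in the clusters from left to right, against 1673, 1709 and 733 in wild type.

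Besides raga-1, unc-119 and the nspc genes, 9 genes were called lower. F35E8.13 had 42.9, 48.0, 25.1 and 54.1 normalized counts in RAGA-1::AID Somatic libraries, against 131, 122, 131 and 189 in wild type libraries (−1.76 ± 0.21 SE, limma adjusted p = 2.6e-05). F41G3.10 had 197, 221, 216 and 188 normalized counts in RAGA-1::AID Somatic libraries, against 295, 332, 361 and 306 in wild type libraries (−0.65 ± 0.08 SE, limma adjusted p = 2.6e-05). Both are known by sequence names only and lie on chromosomes V and II, and each overlaps a gene on the opposite strand, nhr-108 and F41G3.5, whose reads may not be separated. W10G11.3, on chromosome II, overlaps lgc-45 in the same way and averaged 127 ± 12.1 normalized counts in RAGA-1::AID Somatic and 178 ± 14.4 in wild type (SD, n = 4 each, −0.48, limma adjusted p = 0.0038). T20G5.8, on chromosome III, had 26.99, 52.6, 35.9 and 33.8 normalized counts in RAGA-1::AID Somatic libraries, against 72.7, 77.9, 83.2 and 78.1 in wild type libraries (−1.08 ± 0.20 SE, limma adjusted p = 0.0069).

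The other 5 genes have names that place them in families. phat-8 and phat-3 belong to the phat genes, related to toxins and expressed in the pharyngeal glands. phat-8 had 110, 111, 111 and 131 normalized counts in RAGA-1::AID Somatic libraries, against 170, 170, 206 and 175 in wild type libraries (−0.64 ± 0.08 SE, limma adjusted p = 0.00012). phat-3 had 25.4, 31.4, 37.1 and 36.5 normalized counts in RAGA-1::AID Somatic libraries, against 74.8, 55.8, 57.9 and 81.3 in wild type libraries (−1.02 ± 0.17 SE, limma adjusted p = 0.003). The phat genes were looked up as a family after these values were seen. Of the 8 phat genes listed, 5 were tested: both called genes, and phat-7 (−0.52, limma adjusted p = 0.014), phat-6 (−0.24) and phat-5 (−0.20) not called, and their median was −0.52. phat-7 passed the threshold in 5 of 22 alternatives. Among the fits with 1 library left out it did so only without wild type replicate 1 (limma adjusted p = 0.0035). vap-1, a secreted venom-allergen-like protein, had 19.1, 8.31, 16.7 and 9.47 normalized counts in RAGA-1::AID Somatic libraries, against 32.2, 31.1, 42.1 and 26.3 in wild type libraries (−1.30 ± 0.23 SE, limma adjusted p = 0.005). ilys-5, an invertebrate-type lysozyme, had 6342, 5508, 5877 and 5967 normalized counts in RAGA-1::AID Somatic libraries, against 7333, 7801, 8354 and 7803 in wild type libraries (−0.40 ± 0.07 SE, limma adjusted p = 0.0023). far-8, a fatty acid and retinol binding protein, averaged 778 ± 37.5 normalized counts in RAGA-1::AID Somatic and 968 ± 14.8 in wild type (SD, n = 4 each, −0.31 ± 0.05 SE, limma adjusted p = 0.003).

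Of these 9 genes, the calls of F35E8.13, F41G3.10 and phat-8 were kept with each library left out, and the other 6 were lost without at least 1 library although no direction turned. F35E8.13, F41G3.10 and phat-8 lost their calls too with limma on the 8 libraries alone and with replicates 1 and 4 alone. Over all alternatives run, their adjusted p reached 0.036, 0.055 and 0.28. ilys-5 lost its call without RAGA-1::AID Somatic replicate 2 or wild type replicate 3 (limma adjusted p up to 0.015, difference down to −0.37). phat-3 lost it without RAGA-1::AID Somatic replicate 1 or 2 or wild type replicate 1 or 4 (up to 0.024, down to −0.91). W10G11.3 lost it without replicate 1 or 4 of RAGA-1::AID Somatic or replicate 2 or 4 of wild type (up to 0.025, down to −0.41). vap-1 lost it without RAGA-1::AID Somatic replicate 2 or 4 or wild type replicate 1, 2 or 3 (up to 0.031, down to −1.11). far-8 lost it without RAGA-1::AID Somatic replicate 2, 3 or 4 or wild type replicate 1, 3 or 4 (up to 0.018, down to −0.29). Among the fits with 1 library left out, T20G5.8 kept its call only without RAGA-1::AID Somatic replicate 2, whose value was the highest of its group (otherwise up to 0.035, down to −0.94). The last genes inside the threshold were W10G11.3, vap-1 and T20G5.8 at adjusted p of 0.0038, 0.005 and 0.0069, and the first outside were F41E7.2, aqp-1 and pud-3 at 0.011, 0.013 and 0.013 in limma.

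Besides raga-1, no gene of the mTORC1 pathway was called. Of 23 genes of the pathway, all tested, raga-1, the tagged gene, was called lower and none was called higher (4.35% of the list, against 0.213% of all genes). The libraries of nprl-2 and rict-1 did not overlap between the strains either, as in 4.15% of all genes. Their differences were 0.09 and −0.08 and did not pass the test (limma adjusted p = 0.16 and 0.39). The median log2 difference of the 23 genes was −0.01, with 10 above 0 and 13 below. ragc-1, the Rag partner of RAGA-1, had 3661, 4287, 3600 and 3733 normalized counts in RAGA-1::AID Somatic libraries, against 4561, 3808, 3690 and 4478 in wild type libraries, which overlap (−0.11, limma adjusted p = 0.72). let-363, the mTOR kinase, differed by 0.05, daf-15, the worm Raptor, by 0.03 and rsks-1, the S6 kinase, by 0.02. pha-4, a FoxA factor, differed by 0.01 and skn-1, the worm Nrf factor, by −0.07. sgk-1, a kinase downstream of mTORC2, had the lowest value after raga-1 at −0.20 (limma adjusted p = 0.62) and aak-1, an AMPK catalytic subunit, the highest at 0.12 (limma adjusted p = 0.4). For the ligase that TIR1 joins, none of 21 tested genes of the SCF core was called (0.213% of all genes were), with a range of −0.36 for skr-21 to 0.21 for skr-3.

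Among the other lists, no member was called in 100 tested cuticle collagens, 37 lipid metabolism genes, 26 stress response genes, 75 ribosomal protein genes, 86 C-type lectins or 185 F-box A and B genes. Of all genes tested 0.213% were called, so a list of these sizes without a call tells little about its members. The ribosomal protein genes differed little, with most values above 0. Of the 75, 73 lay above 0 and 2 below (72 above under quantile normalization), against 49.8% of all genes above 0, and their median was 0.07. Their summed level was 1173000 to 1188000 normalized counts in RAGA-1::AID Somatic libraries, against 1080000 to 1161000 in wild type libraries. The smallest adjusted p among them was 0.21 by limma, for rps-14 at 0.11. All 6 vitellogenins, the yolk proteins made in the intestine, lay slightly below 0 with a median of −0.07 and a smallest adjusted p of 0.77 by limma.

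The pud genes, named as proteins upregulated in daf-2 mutants, came closest to the threshold as a group. pud-3 had 432, 133, 232 and 394 normalized counts in RAGA-1::AID Somatic libraries, against 538, 658, 832 and 881 in wild type libraries (−1.40 ± 0.27 SE, limma adjusted p = 0.013). pud-4 had 291, 231, 341 and 338 normalized counts in RAGA-1::AID Somatic libraries, against 444, 542, 575 and 449 in wild type libraries (−0.75 ± 0.15 SE, limma adjusted p = 0.019). Neither overlapped and neither was called, and pud-1.2 and pud-2.2 had differences of −1.42 and −1.07 (limma adjusted p = 0.075 and 0.091). Without RAGA-1::AID Somatic replicate 1, pud-3, pud-1.2 and pud-2.2 were called (limma adjusted p = 0.0025, 0.0043 and 0.007), and pud-3 also without replicate 4 (0.0066). With auxin the same comparison of strains, in other libraries, gave a difference of the opposite sign, 1.56 for pud-3 and 2.13 for pud-4 (limma adjusted p = 6.6e-05 and 5.9e-10).

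The 8 libraries kept with auxin give the same comparison of strains in other animals. Both comparisons come from the same fit and share a gene's estimate of spread, so their calls are not fully separate. There 4505 of 13150 genes were called (34.3%, with 14.9% higher and 19.3% lower). Of the 28 genes called without auxin, 16 were also called in the same direction with auxin, 3 higher and 13 lower, none was called in the opposite direction, and 26 had the same sign. The 16 are 57.1% of the calls without auxin and 0.355% of the calls with auxin.

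Of the genes of the construct, raga-1 and unc-119 were also called with auxin, and eef-1A.1 and dpy-10 were called in neither condition. unc-54, not called without auxin, was at 0.56 with auxin (limma adjusted p = 7.4e-08). unc-119 averaged 214 ± 7.86 normalized counts in RAGA-1::AID Somatic with auxin and 317 ± 10.8 in wild type with auxin (SD, n = 4 each, −0.57, limma adjusted p = 5.4e-07). raga-1 was at −0.93 ± 0.04 SE, with 1478, 1628, 1412 and 1457 normalized counts in RAGA-1::AID Somatic with auxin, against 2777, 2871, 2798 and 2921 in wild type with auxin. The 3 genes called higher without auxin were called higher with it. unc-18 was at 2.02 ± 0.11 SE, with 3350, 5120, 4308 and 3976 normalized counts in RAGA-1::AID Somatic with auxin, against 1049, 979, 1000 and 1042 in wild type with auxin. eyg-1 and ZK938.3 averaged 52.8 ± 4.31 and 74.3 ± 11.98 in RAGA-1::AID Somatic with auxin, against 1.02 ± 0.777 and 0.842 ± 1.20 in wild type with auxin (SD, n = 4 each). The strain difference of raga-1 and these 3 genes was not called as different between both conditions (limma adjusted p = 0.027, 0.52, 0.49 and 0.32 for raga-1, unc-18, eyg-1 and ZK938.3).

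The nspc clusters parted with auxin. The first cluster stayed low, at 740 ± 48.5 normalized counts in RAGA-1::AID Somatic with auxin against 1664 ± 63.2 in wild type with auxin (SD, n = 4 each), 0.445 of the wild type mean, and all 5 tested genes were called lower, nspc-5 included. The second cluster was at 1415 ± 40.9 in RAGA-1::AID Somatic with auxin against 1744 ± 66.9 in wild type with auxin, 0.811 of the mean, with nspc-12 called. The third was at 574 ± 42.4 against 718 ± 35.7, 0.8 of the mean, with nspc-18 and nspc-20 called. The change in the strain difference between conditions was called for none of the 5 tested genes of the first cluster, for 4 of 5 in the second and for 3 of 5 in the third.

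In all, 10 of the 28 genes had a strain difference that changed with auxin (16.8% of all genes did, 7.11% upward and 9.67% downward). In each of the 10 the absolute difference was smaller with auxin. The genes were chosen for their difference without auxin, which enters this test, so a smaller value in other libraries follows in part from that choice. Besides 7 nspc genes these were far-8, phat-3 and vap-1. The differences of vap-1 and far-8 turned sign, to 0.49 and 0.04 with auxin (limma adjusted p = 0.082 and 0.53). vap-1 changed most, by 1.78 ± 0.32 SE (limma adjusted p = 0.00032), with 41.8, 37.9, 37.9 and 42.99 normalized counts in RAGA-1::AID Somatic with auxin, against 23.7, 25.6, 35.6 and 29.6 in wild type with auxin. far-8 averaged 991 ± 56.0 in RAGA-1::AID Somatic with auxin and 962 ± 37.5 in wild type with auxin (SD, n = 4 each, change 0.36 ± 0.08 SE, limma adjusted p = 0.0011).

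**Figure D4:**
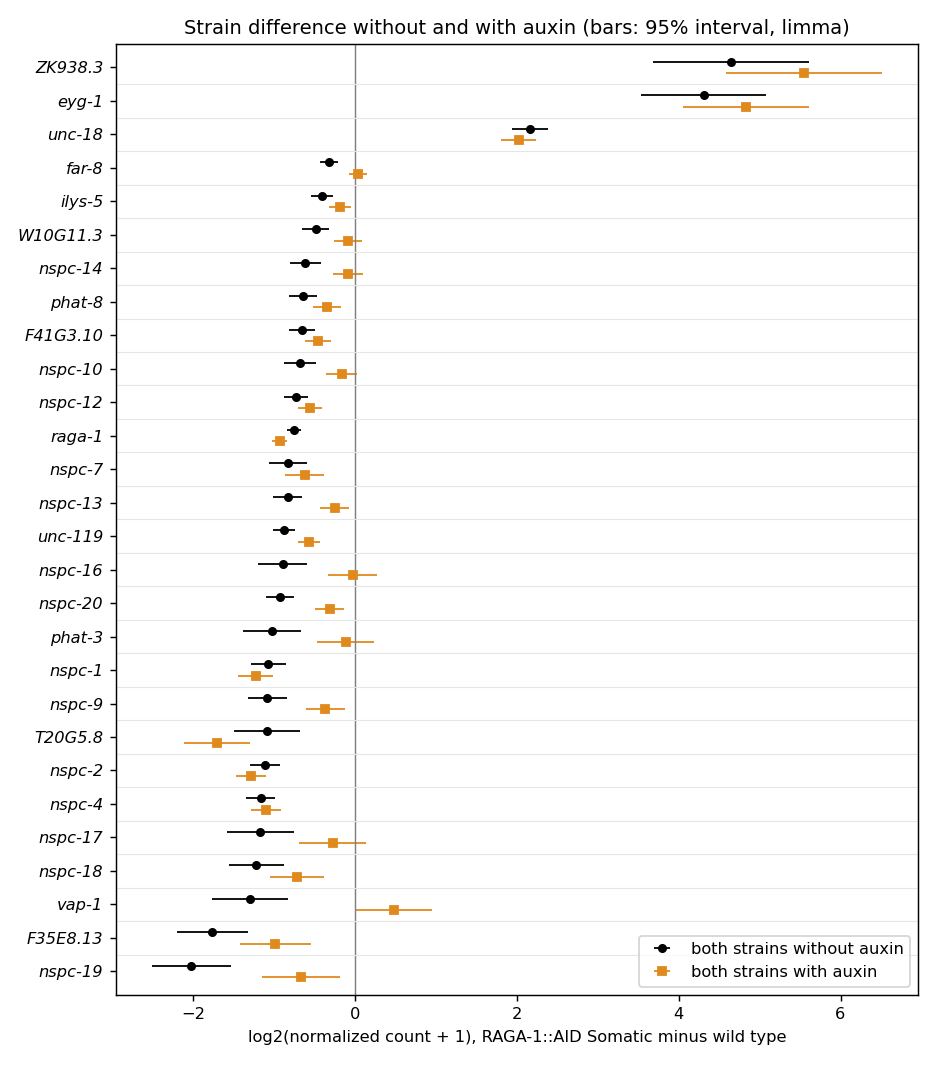
Log2 difference, RAGA-1::AID Somatic minus wild type, of the 28 genes with both strains without auxin (black circles) and both with auxin (orange squares), with 95% intervals from limma. ZK938.3, eyg-1, unc-18, raga-1, unc-119 and the first nspc cluster lie away from 0 in both, and nspc-16, phat-3, far-8, W10G11.3 and nspc-14 lie near 0 with auxin.

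RAGA-1::AID Neuronal carries the same raga-1 allele without ieSi57, so setting both tagged strains side by side shows what they do not share. RAGA-1::AID Somatic differed from RAGA-1::AID Neuronal without auxin in 23 genes (0.175%), 3 higher and 20 lower. This comparison shares the RAGA-1::AID Somatic libraries with the main one, so its values stand only side by side. unc-18 was at 2.17, eyg-1 at 3.88 and ZK938.3 at 4.99 against RAGA-1::AID Neuronal, and unc-119 was at −0.81. nspc-4 was at −1.17, nspc-12 at −0.78 and nspc-20 at −1.004. Of the 28 genes of the main comparison, 22 were called here too. Those not called were raga-1, phat-3, nspc-16, W10G11.3, ilys-5 and vap-1 (limma adjusted p = 0.98, 0.39, 0.14, 0.07, 0.049 and 0.019). RAGA-1::AID Neuronal against wild type gave, for the 27 called genes other than raga-1, differences of −0.46 to 0.43 with a smallest adjusted p of 0.97 by limma. The summed levels of the nspc clusters in RAGA-1::AID Neuronal were 1466 to 1748, 1531 to 1887 and 642 to 755 normalized counts, which overlap those of wild type.

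The genes that differed between the strains with auxin were then looked up without auxin, where no library is shared. The 1964 genes called higher with auxin had a median log2 difference of 0.705 with auxin and 0.02 without it (SD of the medians of the 4 RAGA-1::AID Somatic libraries 0.021, wild type spread not included), with 54.2% above 0. The 2541 genes called lower had a median of −0.20 with auxin and −0.01 without it, with 59.5% below 0. In alternative fits the genes lower with auxin were called anew, so their set changed too. Without replicate 1, 2 or 3 of wild type without auxin their median was −0.0168, −0.0051 or −0.0066. With replicates 1 and 4 alone it was 0.0007, so its sign changed with the libraries and genes used. Over all genes the share above 0 was 49.8%. Of the 1964 and 2541 genes, 3 and 13 were called without auxin in the same direction.

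Those with at least 2-fold differences with auxin were 506 higher and 64 lower genes. The 506 had a median of −0.02 without auxin (SD 0.12, 47.2% above 0). The 64 had a median of −0.33 without auxin (SD 0.15, 76.6% below 0), or −0.32 with the nspc genes left out, and 4 of them were called lower without auxin. Of the 10 genes named for the smallest adjusted p with auxin, raga-1 was called without auxin and the other 9 were not. clec-190, a C-type lectin, was at −1.59 with auxin, and without auxin it had 1484, 1528, 1441 and 1531 normalized counts in RAGA-1::AID Somatic libraries, against 1971, 2023, 1992 and 2080 in wild type libraries. The groups did not overlap, but the difference did not pass the test (−0.43, limma adjusted p = 0.068). fat-2, the delta-12 fatty acid desaturase, was at 1.38 with auxin, and without auxin it had 7846, 8704, 8268 and 8313 normalized counts in RAGA-1::AID Somatic libraries, against 8766, 9977, 9111 and 9043 in wild type libraries, which did not overlap but did not pass the test (−0.15, limma adjusted p = 0.37). far-2, a fatty acid and retinol binding protein, was at 0.73 with auxin and 0.01 without, and B0513.4, try-14 and heh-1 were at 0.02, −0.03 and 0.08 without. egg-6, wapl-1, a cohesin release factor, and F55B11.3 were at −0.37, −0.45 and −1.49 with auxin and at 0.00, −0.01 and −0.02 without.

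**Figure D5:**
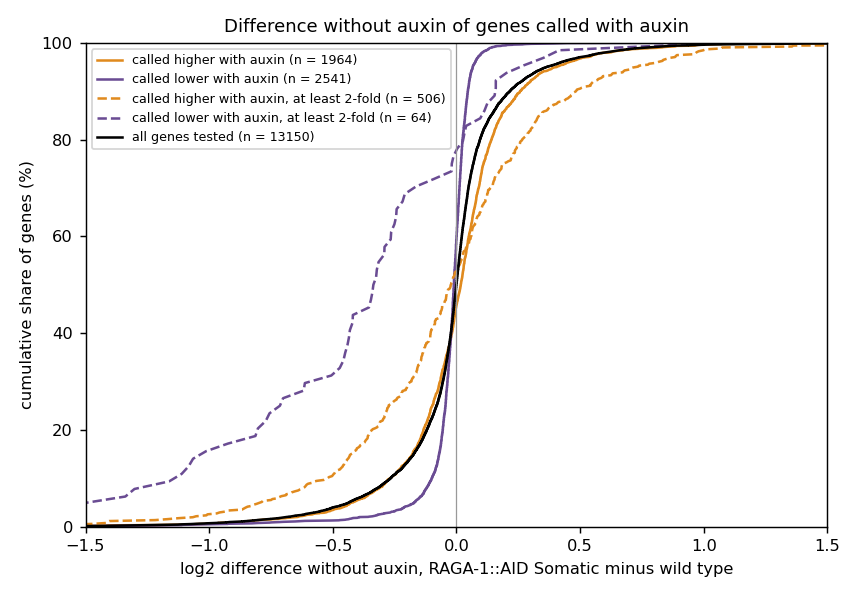
Cumulative share of genes (%) by their log2 difference without auxin, RAGA-1::AID Somatic minus wild type, for genes called higher or lower between the strains with auxin, all (solid) or at least 2-fold (dashed), and for all 13150 genes tested (black). The curve of the 64 genes at least 2-fold lower with auxin lies to the left, with a median of −0.33, and the other medians lie between −0.02 and 0.02.

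The number of calls depended on the samples in the fit and on the use of replicate numbers. With limma fitted on the 8 libraries alone, 15 genes were called, of which 12 were among the 28, and 6 of the 15 nspc genes tested were called (nspc-1, nspc-2, nspc-4, nspc-12, nspc-19 and nspc-20). edgeR on reads recovered from the normalized counts called 28, of which 27 were among the 28 of the main fit. With the replicate number as a block, limma called 78 genes and edgeR 73, and both sets held all 28 of the main fit. At an unadjusted p under 0.05, 1285 genes differed, and at an adjusted p of 0.05 in limma 55 did, 11 higher and 44 lower.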

How the data were processed

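RNA was measured by sequencing in whole animals, 24 libraries in 6 groups of 4, grouped by the labels. Polyadenylated RNA gave strand-specific paired-end libraries. The authors quantified reads with Salmon 1.4.0 on WBcel235, summarised them to genes with tximport, and used DESeq2 1.34.0 (R 4.1.2) for size factors, with FastQC 0.11.5 and STAR 2.7.0 as read checks. As deposited, the signal of a gene in a library is its estimated count over that library's size factor, called the normalized count here. Salmon's strand options are not given in the sources used, so genes that overlap on opposite strands are uncertain. Near-identical copies (nspc, pud) may share reads and are uncertain for that reason. Whole reads were recovered by dividing each library by its smallest value above 0 (tolerance 0.01); for replicate 1 of RAGA-1::AID Somatic with auxin this step was too close to 1 to be tested. Depth was 16982857 to 41671106 reads per library, and intervals on reads cover counting error only.

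Genes that reached 10 normalized counts in 4 or more libraries entered limma 3.58.1 (R 4.3.3), run with an intensity trend on log2 normalized counts plus a pseudocount of 1. All 24 libraries were fitted together with 6 group means. A call required an adjusted p (Benjamini-Hochberg, over all tested genes) of at most 0.01. Changes of the strain difference with auxin were tested in the same fit. Alternatives were other pseudocounts, filters and normalizations, the compared libraries alone, the replicate number as a block, a threshold of 0.05, the recovered reads in DESeq2 1.42.0 or in the quasi-likelihood test of edgeR 4.0.16, each library left out, and pairs of replicates alone. The fits were tested on simulated data. Figures used Python 3.11.15, pandas 2.3.3 and matplotlib 3.10.9.

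The genes named are all genes called without auxin, the mTORC1 and strain construction lists, up to 4 members of each other list by adjusted p, the 5 largest rises and falls not called (mean of at least 50), and the 5 genes higher and 5 lower of smallest adjusted p with auxin. unc-64, fbxa-141 and the genes named around the threshold or between eyg-1 and ZK938.3 were chosen after their values were seen. The members and lists were chosen with earlier results of these data known. Positions and names come from the Ensembl 115 annotation of WBcel235, which named 19793 genes, with 1922 kept by sequence name and 267 by ID.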

Additional observations from a re-analysis of the deposited data

Results flagged for a closer look

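The strain difference changed with auxin, by a test of the change itself in limma, in 10 genes called without auxin, with the change given as the log2 difference with auxin minus that without. It was 0.614 for nspc-20 (adjusted p = 0.00066), 0.585 for nspc-13 (0.0011), 0.715 for nspc-9 (0.0026), 1.349 for nspc-19 (0.0039), 0.515 for nspc-10 (0.0056), 0.525 for nspc-14 (0.0043) and 0.864 for nspc-16 (0.0034). It was 0.357 for far-8 (0.0011), 0.912 for phat-3 (0.0074) and 1.784 for vap-1 (0.00032).

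The change also passed the test in limma for 9 of the genes named for their difference with auxin. That difference enters this test, so passing it follows largely from how these genes were chosen. It was 0.692 for B0513.4 (adjusted p = 7.3e-11), 0.721 for far-2 (1.6e-10), 1.53 for fat-2 (7.3e-11), 0.586 for try-14 (1.6e-10) and 0.633 for heh-1 (1.7e-08), all higher with auxin. It was −1.158 for clec-190 (7.7e-06), −0.377 for egg-6 (2.2e-08), −1.473 for F55B11.3 (3e-08) and −0.437 for wapl-1 (2.6e-07), all lower with auxin.

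In the 6 cases listed here 1 library stood apart from the other 3 of its group. The rule used is met by chance in about 1 of 20 groups. How many groups were looked at is not given, so the 6 cannot be set against that share. The list does not hold every such case among the named genes. hsp-16.41, for example, had 275 normalized counts in wild type replicate 1 and 30.3 to 43.2 in the others. F35E8.13 had 188.8 normalized counts in wild type replicate 4 and 122 to 130.9 in the others. phat-8 had 131.2 in RAGA-1::AID Somatic replicate 4 and 109.5 to 111.1 in the others, and 206.4 in wild type replicate 3 and 170 to 175.3 in the others. Of the mTORC1 genes, nprl-2 had 2004 in RAGA-1::AID Somatic replicate 4 (2088 to 2100 in the others), lmtr-2 had 719 in wild type replicate 1 (807.5 to 822.2) and lmtr-5 had 1067 in wild type replicate 2 (971.2 to 987.1).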

How the results depend on the processing

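The 28 calls without auxin numbered 27 to 29 under other pseudocounts, filters, TMM scaling, quantile normalization and edgeR. With DESeq2 50 genes were called, at an adjusted p of 0.05 in limma 55, with the compared libraries alone 15, with replicates 1 and 4 alone 7 and with replicates 2 and 3 alone 18. Leaving out each library gave 23 to 31. No alternative turned the direction of a called gene. The 14 nspc calls became 6 with the compared libraries alone, 3 with replicates 1 and 4 and 5 with replicates 2 and 3. The 16 genes also called with auxin became 28 with DESeq2, 32 at an adjusted p of 0.05 and 7 with replicates 1 and 4. The 23 calls against RAGA-1::AID Neuronal became 10 with the compared libraries alone, 10 with replicates 1 and 4 and 15 with replicates 2 and 3. The median difference of the genes lower with auxin was −0.0169 after quantile normalization, −0.0129 in the compared libraries, 7e-04 in replicates 1 and 4 (a turned sign), −0.0338 in replicates 2 and 3, and −0.0168 to −0.0051 with a library left out. These genes were called anew in each fit, so their set changed as well. The causes were not tested.

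With the replicate number as a block, limma called 78 genes (18 higher) and edgeR 73 (17 higher), of which 39 and 37 were also called with auxin, and 42 and 38 were called against RAGA-1::AID Neuronal. Same-numbered libraries deviated together with correlations of 0.134, 0.109, 0.198 and −0.008. The sources do not say that a number marks a shared day across strains, so the main fit left the number out. Whether same-numbered libraries share a day was not settled, and the count of 28 calls holds for the fit without a block. RAGA-1::AID Somatic replicate 1 correlated better with wild type replicate 4 (0.183) than with wild type replicate 1 (0.134). RAGA-1::AID Somatic replicate 4 correlated best with wild type replicate 3 (0.03). RNA was extracted from replicates in pairs, and the sources do not say which.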

Other observations

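Between an adjusted p of 0.01 and 0.05 in limma lay 27 further genes without auxin. gst-5, a glutathione S-transferase, averaged 98.4 normalized counts in RAGA-1::AID Somatic and 215 in wild type (−1.11, limma adjusted p = 0.013). col-8, a cuticle collagen, had 4277, 3011, 2885 and 3598 normalized counts in RAGA-1::AID Somatic libraries, against 2510, 2151, 2183 and 2561 in wild type libraries, which did not overlap (0.54, limma adjusted p = 0.039). fdgt-2, on chromosome II, averaged 36.1 in RAGA-1::AID Somatic and 14.3 in wild type (1.36, limma adjusted p = 0.036), and it was also called with auxin (limma adjusted p = 0.0041).

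The largest differences not called were uneven among libraries. hsp-16.41, a small heat shock protein, had 127, 1440, 564 and 96 normalized counts in RAGA-1::AID Somatic libraries, against 275, 38.9, 43.2 and 30.3 in wild type libraries, which overlap (2.34, limma adjusted p = 0.33). F36H9.4 had 26.99, 27.7, 32.3 and 32.5 normalized counts in RAGA-1::AID Somatic libraries, against 89.4, 108, 219 and 84.5 in wild type libraries, which do not overlap (−1.92, limma adjusted p = 0.27).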
